A study of Mus musculus with 3 samples.

Results

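The stefin A cluster is a group of short, closely related genes on mouse chromosome 16 that encode cytosolic inhibitors of cysteine proteases. Its 6 genes described here are Stfa1, Stfa2, Stfa2l1, Stfa3, BC100530 and BC117090. They were taken by name from the gene symbol column of the deposited tables, and each had 1 row among 17559 rows with 17250 gene names. RefSeq lists BC100530 as Cstdc5 and BC117090 as Cstdc6, by the same gene IDs. The genes were measured by RNA-seq of bone marrow (BM) cells of C57BL/6 mice aged 6 to 8 weeks, in 3 libraries. The cells were flushed from the femur, tibia, pelvis and humerus. The mice had received recombinant LECT2, a secreted protein, under the skin at 300 μg/kg daily, over 0, 3 or 5 days. The study's methods give male mice and LECT2 made in CHO cells. Each time point has 1 library, the number of mice behind it is not given in the sources used here, and the labels name no vehicle-injected library. So no difference below could be tested, and every comparison is of 2 libraries and not of the conditions.

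Stefins belong to the cystatin family and bind tightly into the active site of papain-like cathepsins, which blocks them. Unlike the secreted cystatins they have no signal peptide and stay in the cytosol. Man has a single stefin A gene, CSTA, while the mouse has a cluster of copies. Stefin A is known in epidermis and in neutrophils, the granulocytes that mature in the BM from promyelocytes and leave it for the blood.

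The copies are so alike that reads may not tell them apart, so their sequences come before their values. In the GRCm38 build the 6 genes lie between the start of Stfa2l1 at base 36156811 and the end of Stfa3 at base 36455392 of chromosome 16. Stfa2l1 (36156811 to 36161953) and Stfa1 (36276951 to 36285373) are on the plus strand. BC117090 (36321665 to 36334332), BC100530 (36359382 to 36367748), Stfa2 (36403992 to 36408457) and Stfa3 (36450537 to 36455392) are on the minus strand. These are GENCODE M21 positions. The submitters' processing notes name the older mm8 build, the deposited tables hold no positions, and none was converted. Each of the 6 genes has 3 exons in the annotated coding transcript used here. The stretch of 75 bases below is shown because it holds both long shared runs and the scattered differences by which reads are assigned. It runs from base 28 to base 102 of the Stfa2l1 coding sequence, with the bases aligned to it in the other genes, 5′ to 3′ on the coding strand. Capitals mark bases that differ from Stfa2l1. Gm5483 (RefSeq Cstdc4), another gene of the cluster, is added.
Stfa2l1: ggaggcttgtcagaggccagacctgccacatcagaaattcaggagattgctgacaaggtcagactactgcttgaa
Stfa2: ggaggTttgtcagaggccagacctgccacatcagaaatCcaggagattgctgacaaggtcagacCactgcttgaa
Stfa3: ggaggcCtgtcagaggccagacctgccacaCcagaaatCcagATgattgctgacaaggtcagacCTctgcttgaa
Stfa1: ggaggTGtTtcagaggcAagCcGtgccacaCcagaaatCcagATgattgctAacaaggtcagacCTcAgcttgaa
BC100530: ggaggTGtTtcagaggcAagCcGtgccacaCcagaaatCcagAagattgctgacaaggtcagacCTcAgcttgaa
BC117090: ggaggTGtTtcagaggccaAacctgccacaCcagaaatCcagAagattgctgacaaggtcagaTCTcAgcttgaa
Gm5483: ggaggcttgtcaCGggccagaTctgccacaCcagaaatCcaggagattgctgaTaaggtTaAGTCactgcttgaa

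Stfa2 differs from Stfa2l1 at 3 of these 75 bases, Stfa3 at 7, BC117090 at 11, BC100530 at 12 and Stfa1 at 14. The whole coding sequences fall into the same groups. Stfa2 and Stfa2l1 share 96.4% of their aligned coding bases. Stfa1, BC100530 and BC117090 form a group with 97.9% between Stfa1 and BC100530, 96.2% between BC100530 and BC117090 and 94.4% between Stfa1 and BC117090. Stfa3 stands apart, at 80.9% to 84.5% to each of the other members.

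**Figure D1:**
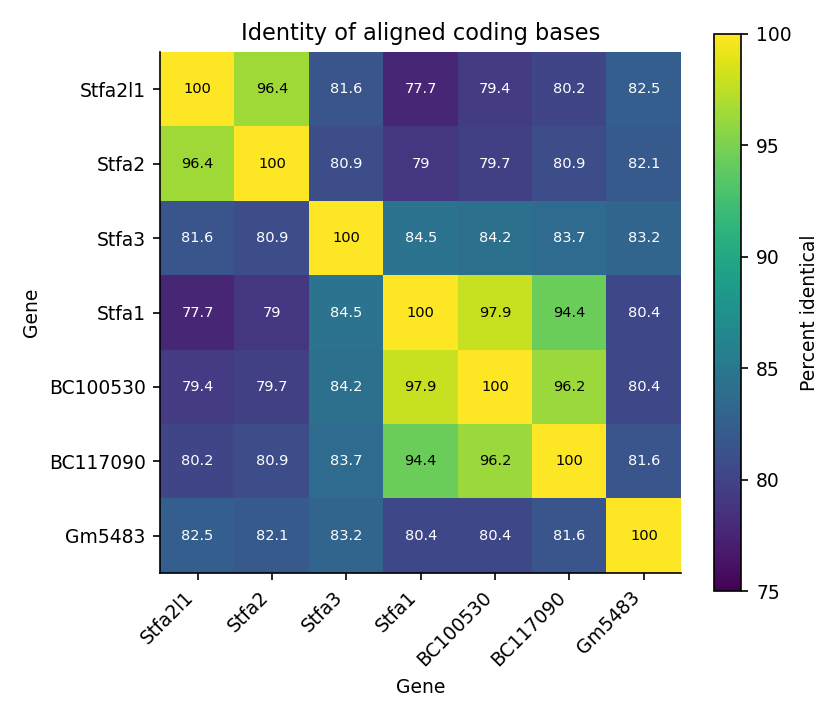
Percent of aligned coding bases that are identical between each pair of the 6 members and Gm5483, by colour and number, from GENCODE M21 coding sequences. Stfa2l1 and Stfa2 form a pair at 96.4%, Stfa1, BC100530 and BC117090 form a group at 94.4% to 97.9%, and the lowest value is 77.7% between Stfa1 and Stfa2l1.

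The share of a transcript that is also found, base for base, in another gene shows where a short read could be placed in either. Of all 50-base windows of the transcript, 24.6% were shared in Stfa2l1, 25.4% in Stfa1, 15.9% in Stfa2, 33.7% in BC117090 and 48.9% in BC100530. None was shared in Stfa3. With 90-base windows the shares were 2.42%, 4.24%, 2.09%, 16.4% and 27.5%, and again 0 in Stfa3. The transcripts used for Stfa1 (514 bases) and BC100530 (619 bases) are longer than the gene lengths of 418 and 453 bases in the deposited tables, so their shares are over a longer sequence than the one counted. The read length and the way the authors placed reads that fit several genes are not given in the sources used here. So the values of single members other than Stfa3 are uncertain by the split of shared reads, and the sum over the 6 members is given beside them.

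Library depth was close to equal. The 0-, 3- and 5-day libraries hold 15523952, 15146983 and 15514673 reads on genes. Values are the deposited read counts and RPKM, the reads of a gene scaled to its length and to the reads on genes in its library. In the 3 libraries 1 read on a kilobase of gene is worth 0.0644, 0.066 and 0.0645 RPKM. Ratios are on the log2 scale of RPKM plus 0.1, at which a value of -1 is a halving. The interval beside a ratio is the exact 95% interval of the ratio of the 2 read counts and covers counting error only.

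The stefin A reads were nearly as many or more at 3 days of LECT2 than at 0 days, and were few at 5 days. Summed over the 6 members, the 0-day library held 923 reads (142 RPKM), the 3-day library 1133 (179 RPKM) and the 5-day library 74 (11.4 RPKM). The sum was 12.5-fold lower at 5 than at 0 days (95% interval 9.83 to 16) and 15.7-fold lower at 5 than at 3 days (12.4 to 20.1). At 5 days 8.02% of the 0-day level was left. In a bulk sample, fewer cells of a type and less RNA per cell cannot be told apart.

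Stfa2l1, a stefin A2-like copy, was the most abundant member in each library. It had 579 reads (90.1 RPKM) at 0 days, 758 (121 RPKM) at 3 days and 34 (5.29 RPKM) at 5 days. Its level stood at percentile 94.6 of genes with reads at 0 days and at percentile 48.1 at 5 days. The log2 ratio was 0.42 at 3 against 0 days (0.27 to 0.58), the only one among the members whose interval lay above 0. It was -4.06 at 5 against 0 days (-4.63 to -3.59) and -4.49 at 5 against 3 days (-5.05 to -4.02).

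Stfa2, its closest copy, was also low at 5 days, on few reads. It had 83 reads (12.6 RPKM) at 0 days, 103 (16.1 RPKM) at 3 days and 4 (0.61 RPKM) at 5 days. The log2 ratio was 0.34 at 3 against 0 days (-0.08 to 0.78) and -4.17 at 5 against 0 days (-6.28 to -2.96). That interval holds the whole interval of Stfa2l1, so the 4 reads do not place Stfa2 above or below it, and with a pseudocount of 1 RPKM the order turned, at -3.08 for Stfa2 and -3.86 for Stfa2l1.

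Stfa1 had the ratio nearest to 0 at 5 days among the measurable members, with an interval that overlaps those of all but Stfa2l1. It had 138 reads (21.3 RPKM) at 0 days, 132 (20.8 RPKM) at 3 days and 23 (3.55 RPKM) at 5 days. The 0- and 3-day libraries differed by less than counting error (log2 ratio -0.03, -0.38 to 0.33). The log2 ratio at 5 against 0 days was -2.55 (-3.29 to -1.94).

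Stfa3 is the member that shares no 50- or 90-base window with another gene, so its reads are the least open to misplacement. It had 64 reads (10 RPKM) at 0 days, 72 (11.5 RPKM) at 3 days and 8 (1.25 RPKM) at 5 days. The log2 ratio was 0.20 at 3 against 0 days (-0.30 to 0.71), -2.90 at 5 against 0 days (-4.27 to -1.93) and -3.11 at 5 against 3 days (-4.47 to -2.15). It was thus low at 5 days alone.

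BC100530 and BC117090 are the copies most like Stfa1. BC100530 had 59 reads (8.39 RPKM) at 0 days, 65 (9.47 RPKM) at 3 days and 5 (0.711 RPKM) at 5 days, with log2 ratios of 0.17 at 3 against 0 days (-0.36 to 0.71) and -3.39 at 5 against 0 days (-5.23 to -2.26). BC117090 had 3 reads (0.512 RPKM) in the 3-day library and 0 in the other two. With 3 reads taken as the limit that a count of 0 allows, the level could be up to 0.499 RPKM at 0 days and 0.5 RPKM at 5 days (0.614 RPKM at both by the 2-sided Poisson interval). So BC117090 was at the limit of detection throughout and has no ratio.

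**Figure D2:**
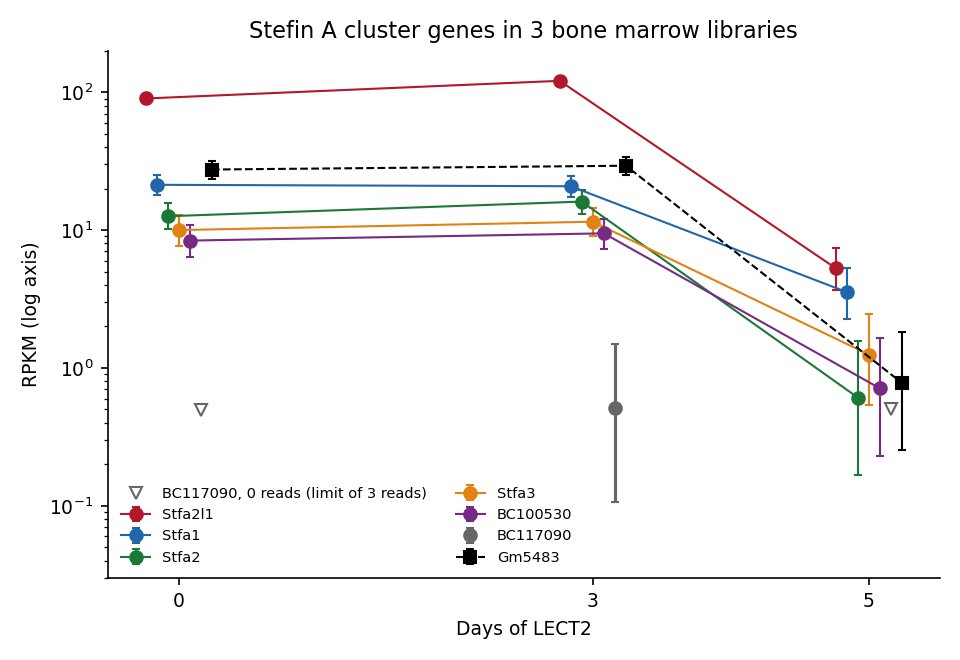
RPKM on a log axis against days of LECT2 for the 6 members (circles) and Gm5483 (squares, dashed line), 1 library per day, with exact 95% Poisson intervals of the read count as bars and points set side by side for legibility. Open triangles mark the RPKM that 3 reads would give for BC117090, which had 0 reads at 0 and 5 days. The 5 measurable members lie between 8.39 and 121 RPKM at 0 and 3 days and between 0.61 and 5.29 RPKM at 5 days.

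RPKM is per length, so the members may be ranked within a library. At 0 days the order was Stfa2l1, Stfa1, Stfa2, Stfa3 and BC100530. Stfa2l1 (82.9 to 97.7 RPKM by counting error) and Stfa1 (17.9 to 25.1) stood clear of the next gene, while the intervals of Stfa2 (10.1 to 15.7), Stfa3 (7.71 to 12.8) and BC100530 (6.39 to 10.8) overlapped. At 3 days the order was the same, and the intervals of Stfa1 (17.4 to 24.7) and Stfa2 (13.1 to 19.5) overlapped too. At 5 days the order was Stfa2l1, Stfa1, Stfa3, BC100530 and Stfa2, and each gene's interval overlapped that of the next.

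The make-up of the stefin A reads differed at 5 days, while the 0- and 3-day intervals of every member overlapped. It also depends on how reads that fit several members were placed. Stfa2l1 gave 62.7% of the members' reads at 0 days (exact binomial 95% interval 59.5% to 65.9%), 66.9% at 3 days (64.1% to 69.6%) and 45.9% at 5 days (34.3% to 57.9%). Stfa1 gave 15% (12.7% to 17.4%), 11.7% (9.84% to 13.7%) and 31.1% (20.8% to 42.9%). Stfa2l1 was lower and Stfa1 higher at 5 days than at 0 or 3 days by non-overlapping intervals, on 74 reads. Without Stfa2l1 the sum of the other members had a log2 ratio of 0.16 at 3 against 0 days (-0.06 to 0.38) and -3.10 at 5 against 0 days (-3.61 to -2.63). So without Stfa2l1 the 3-day interval held 0, while the 5-day level was still low.

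**Figure D3:**
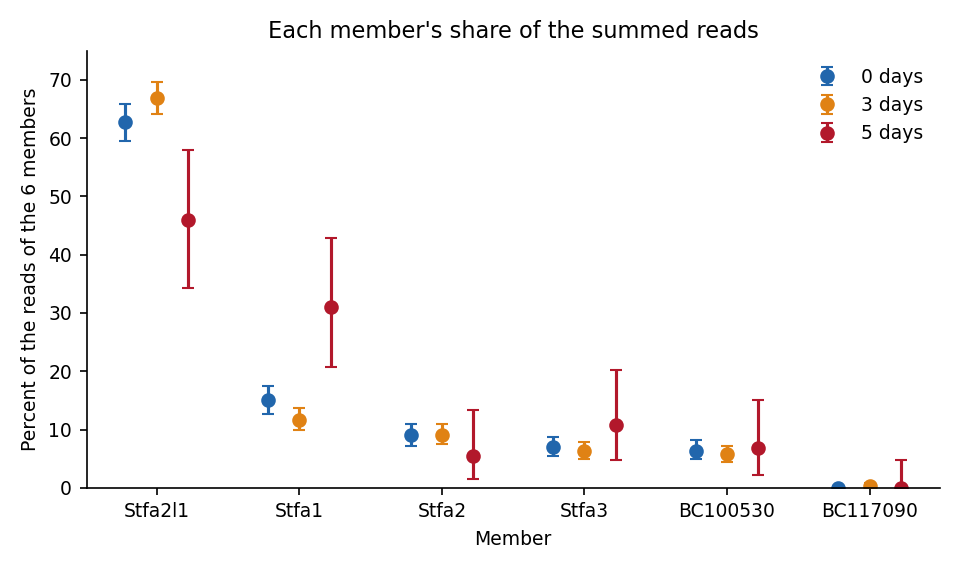
Percent of the summed reads of the 6 members that fell on each member (vertical axis, from 0), with exact binomial 95% intervals, at 0, 3 and 5 days of LECT2 by colour, 1 library each. Stfa2l1 goes from 62.7% at 0 days to 45.9% at 5 days, and Stfa1 from 15% to 31.1%.

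Against all genes, the members stood far out at 5 days, while their place at 3 days depended on gene length. Of the 6 members, 5 had at least 1 RPKM in either library and were compared. None was at least 2-fold lower or higher at 3 against 0 days, where 2.41% of 11325 genes were lower and 4.08% higher. With the length trend described below removed, 2 were higher, Stfa2 and Stfa2l1, and the members' median was 0.87. All 5 were at least 2-fold lower at 5 against 0 days, where 5.91% of 11497 genes were lower and 15.5% higher. That balance of all genes, 680 lower and 1786 higher, turned with TMM factors (1162 lower and 816 higher) and with the length trend removed (875 lower and 581 higher), and all 5 members were lower under both. All 5 were also lower at 5 against 3 days, where 3.45% of 11375 genes were lower and 1.95% higher. The median log2 ratio of the members was 0.20 at 3 against 0 days, beside 0.09 over all genes. It was -3.39 at 5 against 0 days beside 0.31, and -3.56 at 5 against 3 days beside 0.25. With a pseudocount of 1 RPKM in place of 0.1 the members' medians at 5 days were -2.46 and -2.61. Members share reads, so their count is not a count of separate measurements. At 5 against 0 days 0.174% of the genes had a lower ratio than Stfa2, 0.2% than Stfa2l1, 0.444% than BC100530, 0.574% than Stfa3 and 0.878% than Stfa1.

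**Figure D4:**
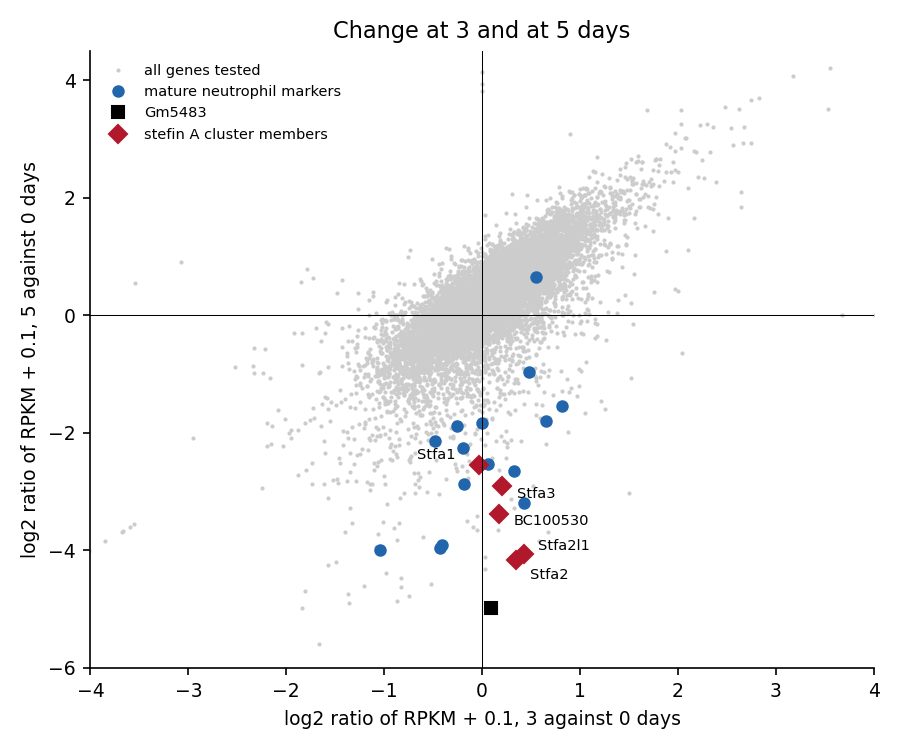
Log2 ratio of RPKM + 0.1 at 3 against 0 days (horizontal) and 5 against 0 days (vertical), 1 point per gene with at least 1 RPKM in a library of either comparison, from 1 library per day. The 0-day library is shared by both axes. The 5 measurable members (red) lie between -0.03 and 0.42 across and between -4.17 and -2.55 down, among the lower mature neutrophil markers (blue), with Gm5483 (black) at -4.98.

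The ratios also moved with gene length, and the members are short, with deposited lengths of 387 to 453 bases. Among 233 genes of 300 to 600 bases outside the cluster the median log2 ratio was -0.64 at 3 against 0 days and -0.72 at 5 against 0 days, and 30.5% were at least 2-fold lower at 5 days. The summed members, at 0.33, lay above most of these at 3 days, where 12 of the 233 were as high or higher. At 5 against 0 days 4 of the 233 were as low as the members' sum or lower. These were Bglap, AI463170, Defb14 and a row with no gene symbol, found after the values were seen. AI463170 (10 reads at 0 days) and Defb14 (6 reads) had 0 reads at 5 days, so their ratios are set by the pseudocount and do not place them against the sum. With a smoothed length trend subtracted, the 5 members had log2 ratios of 0.63 to 1.09 at 3 days and -1.81 to -3.43 at 5 days against 0 days. At 5 against 3 days the short genes outside the cluster had a median of 0.03, and 1 of 228, AI463170, was as low as the members' sum, again with 0 reads at 5 days. Gm5483, of the cluster itself and 414 bases long, was lower still in both 5-day comparisons. The part of gene length in the members' own ratios was not tested.

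**Figure D5:**
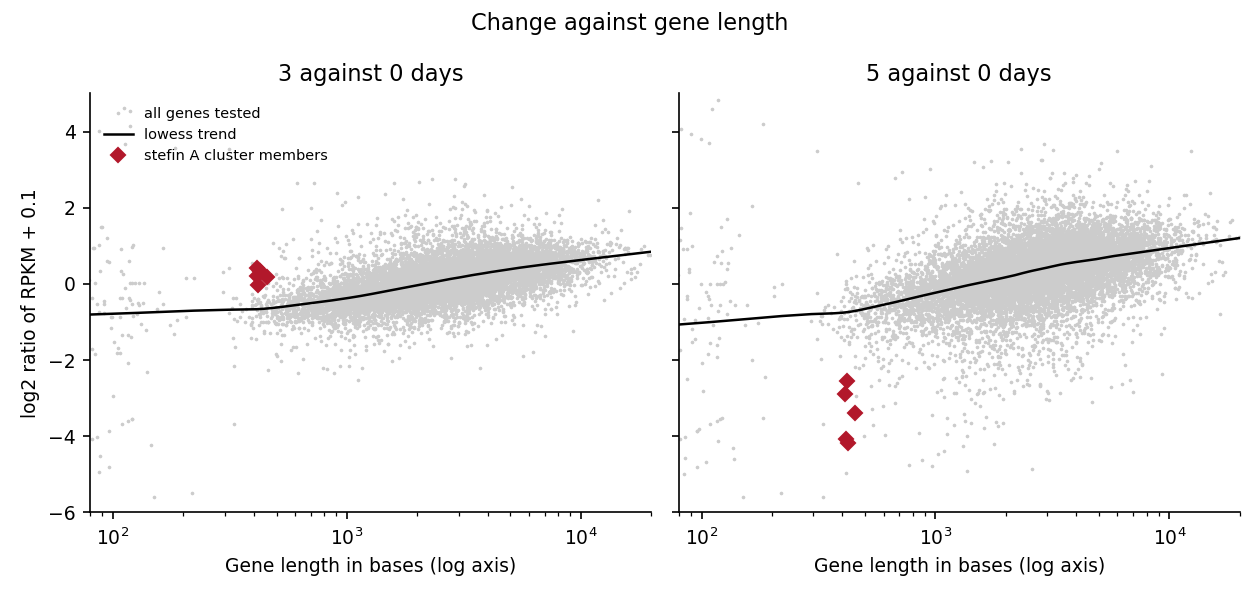
Log2 ratio of RPKM + 0.1 against gene length in bases (log axis) for genes with at least 1 RPKM in either library, at 3 against 0 days (left) and 5 against 0 days (right), with the smoothed (lowess) trend as a black line. The 5 measurable stefin A cluster members (red) sit above the trend on the left, by 0.63 to 1.09, and below it on the right.

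Gm5483, which was named above, was also low at 5 days, and the other genes of the cluster had at most 5 reads in any library. Of 16 other names of the cluster that were looked up, 4 were in the tables. Gm5483 had 177 reads (27.5 RPKM) at 0 days, 184 (29.3 RPKM) at 3 days and 5 (0.778 RPKM) at 5 days. Its log2 ratio was 0.09 at 3 against 0 days (-0.21 to 0.40) and -4.98 at 5 against 0 days (-6.79 to -3.90), and no gene compared had a lower ratio at 5 against 3 days. It shares 35.6% of its 50-base windows with 2010005H15Rik. Gm5416 had 4, 5 and 0 reads, 2010005H15Rik had 4, 2 and 0, and Csta had 0, 0 and 1, all near or under the limit of 3 reads. With these 4 added, the summed log2 ratio was 0.29 at 3 against 0 days and -3.79 at 5 against 0 days.

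The member promoters that could be compared are also alike. RefSeq promoter windows (GRCm38.p6, 250 bases before to 50 after the gene start) were given for 5 of the 6 members, all but BC117090. These 5 windows share 7 unbroken runs of at least 10 bases, the longest of 17 and 15 bases. The run of 13 bases that holds TTTAAA, the letters of a TATA-like element, is ACCTTTAAAACCC. The 90 bases that end with it are shown to let the copies be compared, 5′ to 3′ in the direction of transcription, with the run in capitals.
Stfa2l1, chr16:36156698-36156787, plus strand: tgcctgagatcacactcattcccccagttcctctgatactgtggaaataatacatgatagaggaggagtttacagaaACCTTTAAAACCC
Stfa2, chr16:36408383-36408472, minus strand: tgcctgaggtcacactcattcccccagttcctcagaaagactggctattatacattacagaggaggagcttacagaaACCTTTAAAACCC
Stfa3, chr16:36455414-36455503, minus strand: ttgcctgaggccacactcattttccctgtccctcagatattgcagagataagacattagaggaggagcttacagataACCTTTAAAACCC
Stfa1, chr16:36277038-36277127, plus strand: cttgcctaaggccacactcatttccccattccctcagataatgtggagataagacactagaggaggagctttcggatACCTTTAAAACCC
BC100530, chr16:36367570-36367659, minus strand: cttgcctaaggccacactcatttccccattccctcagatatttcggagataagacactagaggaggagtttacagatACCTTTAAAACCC
Gm5483, chr16:36184103-36184192, plus strand: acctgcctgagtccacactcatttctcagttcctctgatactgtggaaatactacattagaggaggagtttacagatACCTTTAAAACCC

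The run begins 32 to 36 bases before the RefSeq gene start in Stfa2, Stfa1, Stfa3 and Stfa2l1, and 12 bases before it in BC100530. GENCODE M21 places the starts of Stfa1, Stfa2 and BC100530 farther upstream than RefSeq does, so that the run lies inside the GENCODE gene in these 3. All of the letters searched were picked after these promoters had been read. The run is in 7 of 9 promoters of the cluster and in 1 of 27016 other promoters of the same length, that of Gm7260 (0.0037%), with both strands searched. Gm5416, not shown above, is among the 7 and had only 4, 5 and 0 reads. Over the 90 bases it shares 87.8% of aligned bases with BC100530. The copies are alike well beyond the run. Over the 90 bases, BC100530 and Stfa1 share 93.3% of aligned bases, Gm5483 and Stfa2l1 93.1%, and Stfa1 and Stfa2 80.7%. The core TTTAAA, which lies inside the run, is in 13.1% of other promoters. GAGGAGGAG is in all 5 member promoters and in 3.25% of others. The PU.1 core GAGGAAG is in 2 of 5 member promoters against 13.5% of others, and the C/EBP letters TTGCNNAA in 2 of 5 against 10.7%. PU.1 and C/EBP factors direct myeloid gene expression. A match of letters is not a bound site, and the part of promoter likeness in the members' values was not tested.

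Other cystatins are the same kind of inhibitor outside the cluster, and none of those compared differed 2-fold. Of 16 names 7 were in the tables and 3 could be compared, with 0 lower and 0 higher in any comparison. Cst3, the secreted cystatin C, had 546, 470 and 502 RPKM at 0, 3 and 5 days. Cstb, the cytosolic stefin B and closest relative of stefin A, had 63.9, 54 and 48.7 RPKM, with a log2 ratio of -0.39 at 5 against 0 days (-0.57 to -0.22). Cst7, cystatin F of immune cell granules, had 41.2, 31.3 and 56.6 RPKM. At 0 days the summed stefin A level of 142 RPKM was above that of Cstb, and at 5 days, at 11.4 RPKM, below it.

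The cathelin-domain proteins carry a cystatin-like fold and are stored in neutrophil granules. Ngp, neutrophilic granule protein, had 21998, 21281 and 10391 RPKM at 0, 3 and 5 days. Camp, the cathelicidin, had 14235, 7762 and 3609 RPKM. Both were at least 2-fold lower at 5 against 0 days, with log2 ratios of -1.08 and -1.98, smaller in size than those of any measurable stefin A member. The value of Camp lies inside the counting intervals of Stfa1 (-3.29 to -1.94) and Stfa3 (-4.27 to -1.93), so its place below these is not resolved.

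Cysteine proteases of the lysosome differed less, and in both directions. Papain-like cathepsins are the targets of stefins, while legumain belongs to another family. Of 11 cysteine cathepsins and legumain, 2 were at least 2-fold lower and 1 higher at 5 against 0 days, with a median log2 ratio of -0.03. Ctsc, the dipeptidyl peptidase that activates granule serine proteases, had 41.1, 77.7 and 134 RPKM and a log2 ratio of 1.70 at 5 against 0 days (1.62 to 1.79). Ctsl, a lysosomal endopeptidase, had 42.8, 26.1 and 20.7 RPKM and a log2 ratio of -1.04 (-1.19 to -0.91). The other lower gene was Ctsk, the collagenase of osteoclasts, with 5.04, 1.92 and 0.913 RPKM.

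The remaining lysosomal proteases with at least 10 RPKM stayed within 2-fold at 5 against 0 days. Ctsb had 137, 136 and 154 RPKM, Ctsh 122, 144 and 154, and Ctsz 122, 115 and 172. Lgmn, the legumain, had 32.5, 25.6 and 31.8 RPKM, Ctsw of cytotoxic lymphocytes 15.4, 6.86 and 11.7, and Ctso 10.9, 10.6 and 10.6. At 3 against 0 days 2 of the 11 were lower, Ctsw and Ctsk. None passed 2-fold at 5 against 3 days.

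A list of other protease inhibitors of myeloid cells had 12 genes that could be compared, of which none differed 2-fold at 3 against 0 days and 4 were lower at 5 against 0 days, with a median log2 ratio of -0.72. The list holds Anxa1, annexin A1, a phospholipid-binding protein that is also in the secondary granule list and is no protease inhibitor, with 1432, 1390 and 593 RPKM. Without it 3 of 11 were lower, with a median of -0.63. Slpi, an inhibitor of neutrophil elastase, had 243, 197 and 58.5 RPKM. The other two were Timp2 and Serpinb2. Serpinb1a, which inhibits neutrophil serine proteases, had 151, 154 and 114 RPKM, and Wfdc17, at 485 bases nearly as short as the members, had 62.4, 60.3 and 50.5 RPKM. Wfdc17 thus differed by less than 2-fold.

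The libraries carried the markers of BM cells, and those of mature neutrophils were low at 5 days with the stefin A genes, while at 3 days their summed level was lower than at 0 days and that of stefin A higher. Of 15 mature neutrophil genes compared, 13 were at least 2-fold lower at 5 against 0 days, with a median log2 ratio of -2.25, and 14 were lower at 5 against 3 days. Their summed level was 99962, 76174 and 22992 RPKM. At 3 against 0 days 1 was lower and 0 higher. S100a9 and S100a8, the abundant calcium-binding proteins of neutrophils, had log2 ratios of -2.14 and -1.88 at 5 against 0 days. Retnlg, a resistin-like protein, had -3.96, and Mmp8, the neutrophil collagenase, -2.53. The part of neutrophil number in the stefin A values was not tested.

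Within a library the stefin A sum can be set against each neutrophil marker, which does not depend on how libraries are scaled. The log2 ratio of the sum was below that of 12 of the 15 markers at 5 against 0 days, with a median difference of -1.39. Retnlg, G0s2 and Il1r2 were the 3 that had lower ratios than the sum, by differences of 0.32, 0.26 and 0.36. The counting interval of the sum, with its upper end at -3.30, overlapped those of these 3 and of Asprv1 (-3.46 to -2.98). The order of the sum against these markers is therefore not resolved. At 5 against 3 days the sum was below all 15, with a median difference of -1.51. Its counting interval there (-4.33 to -3.63) overlapped those of Asprv1 (-3.89 to -3.41) and G0s2 (-3.64 to -3.35). That result also rests on Stfa2l1. Without it the sum was at -3.26, above Retnlg (-3.53), G0s2 (-3.49) and Asprv1 (-3.63). At 3 against 0 days the full sum was above 10 and below 5. Its interval (0.20 to 0.46) overlapped those of Fpr1, Asprv1, Padi4 and Mrgpra2a. The members are shorter than most of these markers, and with the length trend removed the sum was below 10 of the 15 at 5 against 0 days (median difference -0.63), below all 15 at 5 against 3 days (-1.22) and above all 15 at 3 against 0 days (0.73).

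Genes of earlier neutrophil stages gave other values. Of 13 secondary granule genes, made by myelocytes, 6 were lower at 5 against 0 days, with a median of -0.92, and 9 at 5 against 3 days, with a median of -1.17. By mean level over the 3 libraries the most abundant after Ngp and Camp were Lcn2, lipocalin 2, at -1.79 and Lyz2, lysozyme, at 0.01 against 0 days. Ltf, lactoferrin, which had more RPKM than Lyz2 at 0 days, was at -1.37. Of 10 promyelocyte genes, 0 were lower and 2 higher at 5 against 0 days, with a median of 0.53. Elane, neutrophil elastase, was at 0.35 and Mpo, myeloperoxidase, at 1.51, with Prtn3 at 0.67 and Ctsg at 0.45.

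Other cell types gave these values at 5 against 0 days. Of 15 macrophage and monocyte genes, 0 were lower and 7 higher (median 0.97). The most abundant was Ly6c2 at 0.29, followed by Mpeg1 at 1.27, F13a1 at 2.34 and Cd68 at 1.27, while C1qa, C1qb and C1qc were at -0.20, -0.05 and -0.06. With the length trend removed Mpeg1 was at 0.67, under 2-fold. Of 12 eosinophil and basophil genes, 1 was higher (median 0.03), and Prg2, the major basic protein, was at -0.08. Of 11 erythroid genes, 4 were lower (median -0.43), namely the globins Hba-a1 at -1.92, Hba-a2, Hbb-b1 and Hbb-b2. The other erythroid genes stayed within 2-fold, in both directions. Among 10 B cell genes none passed 2-fold (median -0.33), and among 11 T and NK cell genes 1, Cd3d, was lower (median -0.19).

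Stefin A is also made by keratinocytes, and their markers were at or near 0. Of 11 keratinocyte names 2 were in the tables. Krt10, a keratin of the upper epidermis, had 7, 4 and 8 reads at 0, 3 and 5 days, and Ivl, involucrin, had 1, 0 and 0. Neither had 1 RPKM in any library.

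The genes whose pattern was most like that of the stefin A sum were looked for among 1984 genes with at least 50 RPKM in any library. Likeness was the Euclidean distance between the log2 ratios at 3 and 5 days against 0 days, over 3 libraries. Niacr1, the nicotinic acid receptor, was nearest at 0.38, with 56.9, 55 and 4.44 RPKM. Il1b, the cytokine interleukin-1β, was at 0.44 with 245, 237 and 22.8 RPKM. Asprv1, an aspartic protease known in skin that is also in the mature neutrophil list, was at 0.45 with 59.9, 80.8 and 6.45 RPKM.

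Il1f9, a cytokine of the interleukin-1 family, followed at 0.51, with 72.7, 65.2 and 6.34 RPKM. Next came G0s2 at 0.78, Retnlg at 0.82, Trem1, a receptor of neutrophils and monocytes, at 0.92, and Tnf, the cytokine, at 0.95. G0s2, Retnlg and Trem1 are in the mature neutrophil list too. Asprv1 alone of these 8 had a higher level at 3 than at 0 days, as the stefin A sum had. Of the 1984 genes, 49 were at least 4-fold lower at 5 against 0 days, and 4 of these were higher at 3 against 0 days, namely Asprv1, Fpr1, Adam8 and Mmp8. Their log2 ratios at 3 days were 0.43, 0.33, 0.20 and 0.07, beside 0.33 for the stefin A sum. The order depended on gene length: with the length trend removed 3 of the 8 nearest genes were shared with those above, namely Asprv1, Il1b and Retnlg, and Asprv1 and Fpr1 were nearest, both at 0.52.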

How the data were processed

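RNA was taken from BM cells of mice given LECT2 for 0, 3 or 5 days, 1 library each, poly(A)-selected and fragmented for Illumina TruSeq sequencing. The authors deposited 3 pairwise tables with a read count and an RPKM per gene and library. The submitters' processing notes name the mm8 build, and the study's methods name Cufflinks for gene expression. The aligner, its settings and the treatment of reads that fit several genes are not given in the sources used here. The columns of log2 ratios, P values and FDR were not used. The deposited RPKM was used as given, and a gene without reads, listed at 0.01, was set to 0. Within a relative difference of 1e-06 it equalled the RPKM recomputed from the counts, except for 18 genes at 0 days and 14 at 3 days, none of them members.

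The members and gene lists were chosen with earlier results of these data known. Named were all members, every other listed gene of the cluster, the 8 genes nearest in pattern, up to 4 of the most abundant genes of each list, and every cysteine cathepsin and cystatin with at least 10 RPKM in any library. The values of 1 mature neutrophil gene are not reported here, though it is in the counts and medians of its list. Genes that complete a count of 5 or fewer were added after their values were seen. Ltf, C1qa, C1qb and C1qc were named beyond these rules. Genes with at least 1 RPKM in either library were compared, at a pseudocount of 0.1 RPKM and a threshold of 2-fold. Intervals of read ratios and shares are exact binomial (Clopper-Pearson) 95% intervals, and those of RPKM exact Poisson. They cover counting error only, since each time point has 1 library. PCR copies are not separate molecules, so the intervals may be too narrow even for that. No p-value was computed, for want of replicate libraries. The length trend was a lowess fit (span 0.3). Transcripts and positions came from GENCODE M21 (GRCm38), and promoters from RefSeq (GRCm38.p6), matched by gene ID, with 5 of 6 members found. Sequences were aligned pairwise with Biopython 1.88. TMM factors came from edgeR 4.0.16 and size factors from DESeq2 1.42.0, for alternatives only. Steps were run in Python 3.11.15 with scipy 1.17.1 and statsmodels 0.14.6, and tested on simulated data. Other pseudocounts, minima, thresholds, scalings and the sum without Stfa2l1 were tried.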

Additional observations from a re-analysis of the deposited data

How the results depend on the processing

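The stefin A sum was lower at 5 days in 13 of 13 alternatives run, from -3.95 to -2.90 on the log2 scale against 0 days and from -4.33 to -3.26 against 3 days. At 3 against 0 days it was above 0 in all 13, from 0.16 to 0.99, with its size set by Stfa2l1 and by the length trend. All 13 reuse the same libraries, so they are no test of the difference. With the length trend removed the sum was 0.99 at 3 days and -2.90 at 5 days against 0 days, the members' median at 3 days was 0.87, and 2 members were at least 2-fold higher at 3 days. Without Stfa2l1 the sum was 0.16 at 3 against 0 days (-0.06 to 0.38), -3.10 at 5 against 0 days and -3.26 at 5 against 3 days. With no minimum beyond 1 read, 1 member, BC117090 with 3 reads against 0, counted as higher at 3 days. Of 90 values of single members under alternatives 7 moved beyond their counting interval, all with the length trend removed, which took Stfa1 at 3 against 0 days from -0.03 to 0.63. Chosen after seeing the data were the removal of the length trend from the neutrophil markers and nearest genes and the inhibitor list without Anxa1, whose values stand beside those results. No paired analysis was possible because each time point has 1 library, and leaving out a library only removes the comparisons it enters.

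The counts over all genes depended on the settings. At 3 against 0 days, 273 genes were lower and 462 higher. The lower count was 120 at a pseudocount of 1, 420 when scaled to reads outside the 100 most abundant genes, 118 at a minimum of 5 RPKM, 688 with no minimum and 33 at 4-fold. The higher count was 190 at a pseudocount of 1, 293 with the length trend removed, 236 at 5 RPKM, 830 with no minimum and 36 at 4-fold. At 5 against 0 days, 680 were lower and 1786 higher. The lower count was 1162 with TMM factors, 1141 with size factors, 421 at 5 RPKM, 1180 with no minimum and 186 at 4-fold. The higher count was 1140 at a pseudocount of 1, 816 with TMM factors, 842 with size factors, 581 with the length trend removed and 153 at 4-fold. At 5 against 3 days, 393 were lower and 222 higher. The lower count was 258 at 5 RPKM, 717 with no minimum and 105 at 4-fold. The higher count was 52 at a pseudocount of 1, 66 with TMM factors, 68 with size factors, 147 outside the most abundant genes, 75 with the length trend removed, 94 at 5 RPKM, 578 with no minimum and 13 at 4-fold. TMM factors took the median of all genes at 5 against 0 days from 0.31 to 0.00, and the causes of these shifts were not tested. At 5 days the members rest on 74 reads, so depth limits any ranking among them there.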
